A study of Mus musculus with 6 samples.

Results

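Dex given before lipopolysaccharide (LPS) was compared with Dex given late in an LPS treatment, over the open chromatin regions that every library of both groups listed. The measurements were DNase-seq, which maps accessible chromatin by sequencing fragments freed from nuclei by a light DNase I digestion. The cells were macrophages grown from the bone marrow of C57BL/6J mice, and all of them had LPS for 8 h. In the pre-treated group (2 libraries) Dex came before LPS, in the late-treated group (2 libraries) it came late in the LPS treatment, and another group (2 libraries) had LPS alone and is used here only as a level without Dex. The labels give no dose or length for Dex, no age or number of mice, and no statement that replicates came from separate cultures, so spreads and p-values measure the difference between these libraries, which may be technical. The labelled cell type was not checked against marker loci, because regions are identified here by mm9 positions and not by genes.

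LPS is a bacterial cell wall component that macrophages sense through a surface receptor, and the signal leads to NF-kB and other factors opening and binding enhancers of inflammatory genes. Dex is the glucocorticoid of the study. Its receptor moves to the nucleus when it binds the steroid, binds DNA at many already open sites, opens others, and restrains NF-kB and AP-1 at inflammatory genes. A receptor activated before the stimulus meets resting chromatin, while one activated late meets enhancers that LPS has already opened. The comparison addresses that difference in timing, although cells given Dex earlier may also have had it for longer.

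The hotspots of the 4 Dex lists merged, by an overlap of at least 1 bp, into 50187 regions, of the 59084 that the 6 lists of the series give. All 4 libraries listed 25877 of the 50187 (51.6%), and these shared regions are the ones compared. A further 6195 were listed by 3 libraries, 7951 by 2 and 10164 by 1. Single lists held 29347 to 44686 hotspots, and replicate 1 of the late-treated group had the shortest. It alone lacked 4708 of the 6195 regions found in 3 libraries, and those lay low in the other lists, at median percentiles of 21.5, 34.5 and 33.6 (pre-treated replicates 1 and 2, late-treated replicate 2). Replicate 1 of the pre-treated group alone lacked 1131, and the replicates 2 alone lacked 138 and 218. The shared regions made up 92.8% of the regions of late-treated replicate 1 and 59.0% of those of pre-treated replicate 2. They were 270 to 7643 bp wide, with a median of 1012 bp, and 25433 of them (98.3%) were also listed by both LPS libraries.

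Strength was read from the maximum tag density of a hotspot. Each hotspot received its percentile rank of maximum density within its own list, and a region took the highest rank among a library's hotspots in it. A list that reaches further down into weak hotspots gives the same region a higher percentile: the median shared region stood at 62.0 and 70.7 in the pre-treated lists and at 54.4 and 70.0 in the late-treated lists. The regions were therefore ranked once more among the 25877 alone, from near 0 (weakest) to 100 (strongest). This value is called the shared rank, and its differences are given in percentile points. Maximum densities were, within 0.1 of a step, whole multiples of a step of 0.380 to 0.443 in the 4 libraries, so the lower ranks are coarse. In the weaker part of the ranking, neighbouring density values lay 1.36 to 1.61 points apart. Total tag numbers are unknown, so no counting interval can be given.

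Whether libraries that differed in the timing of Dex were further apart than replicates depended on the pair. Over the 25877 regions the shared ranks of the 2 pre-treated replicates differed by a median of 7.20 points, and those of the 2 late-treated replicates by 7.76 points. The 4 pairs of a pre-treated and a late-treated library differed by medians of 4.95, 5.86, 7.71 and 8.27 points. The range of the timing pairs thus enclosed both replicate pairs. The smaller values, 4.95 and 5.86, belonged to the timing pairs that carry the same replicate number, and the larger ones to pairs with different numbers. Pearson's r across regions, given as a description because regions are not independent replicates, was 0.939 and 0.926 for the same-number timing pairs. It was 0.915 and 0.896 for the pre-treated and late-treated replicates, and 0.899 and 0.886 for the other timing pairs. The 4 timing pairs averaged 6.70 points and the 2 replicate pairs 7.48, but replicates always carry different numbers. Against replicates, the timing pairs of different number, 7.71 and 8.27, were similar or slightly wider, and those of the same number were closer. The labels do not say what the number stands for, and its part in these values was not tested.

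**Figure D1:**
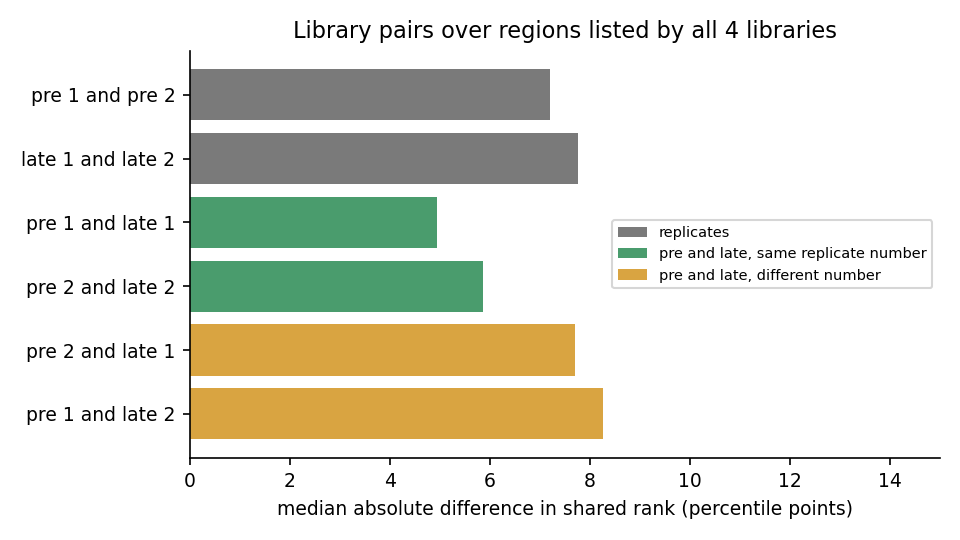
Bars give the median absolute difference in shared rank (x axis, percentile points) between 2 libraries over the 25877 regions, for each of the 6 pairs of pre-treated (pre) and late-treated (late) libraries. The replicate pairs (grey, 7.20 and 7.76) lie above the timing pairs of the same replicate number (green, 4.95 and 5.86) and overlap the timing pairs of different number (yellow, 7.71 and 8.27).

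The differences from LPS alone were set beside the timing differences. Among the 25433 regions listed by all 6 libraries, re-ranked within that set, the 2 same-number timing pairs differed by 4.90 and 5.83 points and those of different number by 7.70 and 8.33. Pre-treated and LPS libraries of the same number differed by 6.23 and 6.60, and late-treated and LPS libraries by 5.99 and 6.82. With different numbers the values were 7.04 and 9.43 for pre-treated against LPS, and 7.31 and 9.47 for late-treated against LPS. Both sets of values use the same LPS libraries. The LPS replicates differed from each other by 6.76 points. With the same number, the timing pairs were closer than either Dex group was to LPS. With different numbers this did not hold, since 7.04 and 7.31 for Dex against LPS lay below 7.70 and 8.33.

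No region passed the test for timing. limma, fitted to the shared ranks of all 25877 regions, called 0 higher in the pre-treated group and 0 higher in the late-treated group at an adjusted p of 0.05 (Benjamini-Hochberg), so the called share was 0.0% in each direction. At an unadjusted p below 0.05 there were 277 regions higher with Dex before LPS and 409 higher with late Dex, together 686 or 2.65% of those tested, and without late-treated replicate 1 there were 1104. That number was 58 with percentiles of the whole lists, 159 of 13468 with the stronger 50% of each list and 1231 without a variance trend in limma. If no region differed and libraries varied independently, a threshold of 0.05 would by itself pass a share of about 0.05. Same-numbered libraries deviated together from their group means (r = 0.43 over regions). The share to be passed without any difference is therefore not known here, and 2.65% cannot be judged against 0.05. The median standard error of a difference was 8.02 points, close to 2 times the median difference of 4.23 between group means, and with 2 libraries a group differences of several standard errors were not called. A mean difference of at least 10 points was seen in 5098 regions (19.7%), of at least 20 points in 714 (2.76%) and of at least 30 points in 75. On a log2 scale of maximum density, quantile normalized over the shared regions, the median absolute difference was 0.15 and 21 regions differed by at least 2-fold.

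Each region was then set against its own replicates. A region is called separated where both ranks of one group lie above both of the other and the gap between the groups is wider than either replicate difference. This is a description and not a test. The rule sets no smallest size, and differences of separated regions, pre-treated minus late-treated, were as small as 0.00386 and -0.00386 points. The groups did not overlap in 7015 regions (27.1%), 3464 with pre-treated and 3551 with late-treated libraries higher (13.4% and 13.7% of those compared). If the labels of 2 against 2 libraries were interchangeable, a share of 0.333 would not overlap, ties aside. The stricter separation held for 1881 (7.27%), of which 906 (3.5%) were higher with Dex before LPS and 975 (3.77%) higher with late Dex. With percentiles of the whole lists in place of shared ranks the numbers were 910 and 169, so the near balance between the directions is not found on that scale, into which the length of each list enters. Leaving out any 1 library removes 1 of the 2 replicate differences from the rule, and the counts then ran from 3219 to 4061 and from 3376 to 4123. Separated regions differed by medians of 12.4 and 12.9 points, which correspond to 1.29-fold and 1.32-fold in normalized maximum density. At least 10 points separated 561 of the 906 regions higher with Dex before LPS and 636 of the 975 higher with late Dex. At least 20 points separated 141 and 197 of them.

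**Figure D2:**
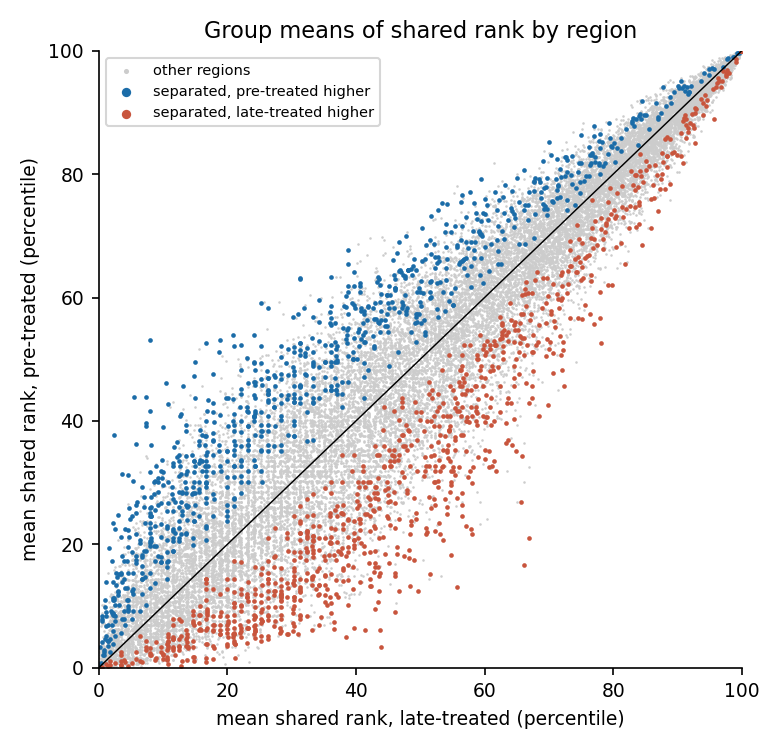
Each point is 1 of the 25877 regions, placed by its mean shared rank in the 2 late-treated libraries (x axis, percentile) and the 2 pre-treated libraries (y axis, percentile), with the line of equal ranks. The 906 separated regions higher with Dex before LPS (blue) lie above the line and the 975 higher with late Dex (red) below it, and both bands narrow towards the strongest regions.

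Strong regions differed least. At mean shared ranks from 75 upwards, 6229 regions differed between a pre-treated and a late-treated library by 3.29 points on average over the 4 pairs' medians. Their replicates differed by 4.54 points (pre-treated) and 4.61 points (late-treated). The average of the timing pairs includes those of the same number, while replicates always carry different numbers. Separated regions were 104 and 106 of the 6229, 1.67% and 1.70% against 3.5% and 3.77% over all shared regions. Between ranks 25 and 50 the timing pairs averaged 10.9 points, the replicates 10.4 and 11.5 points, and 4.28% and 4.94% of 7006 regions were separated. Rank points are not equal steps in density, so the same comparison was made on the log2 scale of normalized density. There the median absolute difference between group means was 0.20 below rank 25 and 0.11 from rank 75 upwards. The 5 strongest shared regions, among them chr1:197067415-197068423 with maximum densities of 579 and 712 (pre-treated) and 545 and 719 (late-treated), stood at the top of every library. The lists were used here without a filter for repeats or mapping artefacts. By the rule above chr1:197067415-197068423 counts as separated, at ranks of 100 and 100 against 99.9961 and 99.9961, because its replicates tied.

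**Figure D3:**
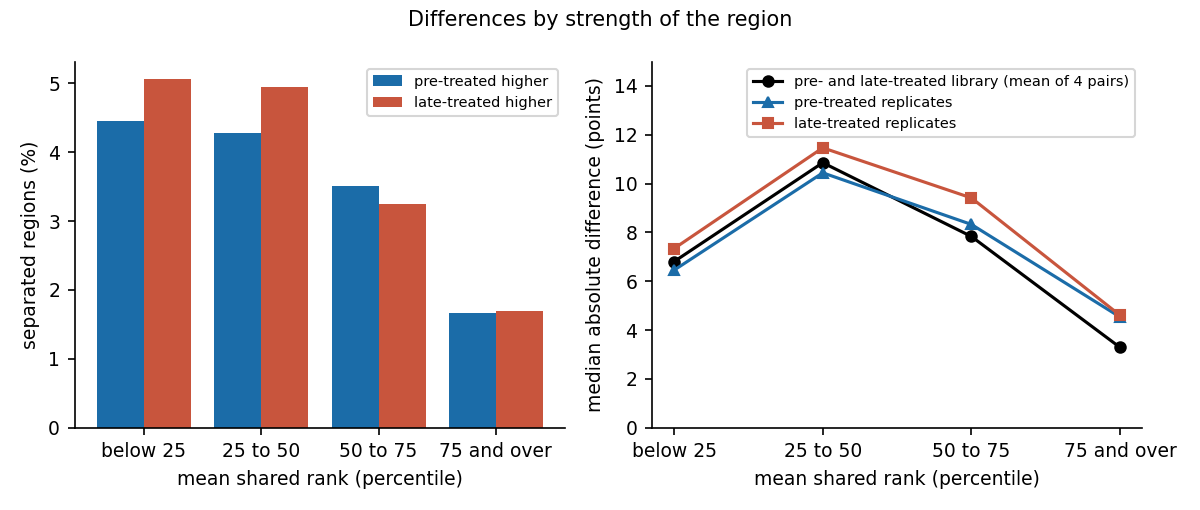
Left, separated regions as a percentage of the shared regions in 4 classes of mean shared rank (x axis, percentile), by direction. Right, the median absolute difference in shared rank (points) between 2 libraries in the same classes, for the 4 timing pairs averaged and for the replicates of each group. The timing average lies between the replicate values below rank 50 and under both from rank 50 upwards. It includes the same-number pairs, while replicates always carry different numbers. Separated regions go from 4.45% and 5.06% to 1.67% and 1.70%.

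The share of separated regions also differed with width. Of the 117 regions under 500 bp, the weakest class, 5.98% were separated. Regions of 500 to 1000 bp were separated in 9.06% of 12479 cases, and regions of 1000 to 2000 bp in 5.64% of 11234. Regions of at least 3000 bp, which number 352, included 19 separated ones (5.40%), 7 higher with Dex before LPS and 12 higher with late Dex. Median widths were 942 bp for separated regions higher in the pre-treated group, 902 bp for those higher in the late-treated group and 1022 bp for the others. Among the 711 regions of chromosome X, singled out after its values were seen, 35 (4.92%) were separated with Dex before LPS higher and 15 (2.11%) with late Dex higher, beside 3.5% and 3.77% over all. Regions of chromosome X were weak, with a median mean rank of 24.1 against 48.9 for all shared regions. Of all shared regions below rank 25, 4.45% and 5.06% were separated. Chromosomes 6 and 18 were even, with 46 and 46 of 1367 regions and 26 and 26 of 721.

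The 10 regions with the widest separated difference in each direction were weak to middling in strength. Those higher with Dex before LPS were spread over 8 chromosomes, with widths of 718 to 1191 bp, and differed by 33.6 to 45.2 points, or 1.80-fold to 2.43-fold in normalized density. Their unadjusted limma p ran from 0.00154 to 0.0114, and the adjusted p was 1 for each. The widest difference was at chr1:94572344-94573296. Its shared ranks were 45.1 and 61.3 in the pre-treated libraries and 7.91 and 8.12 in the late-treated ones, with maximum densities of 16.1 and 23.5 against 8.00 and 9.30. The replicates nearly coincided with late Dex and lay 16.1 points apart with Dex before LPS, well short of the gap between the groups. The difference was 45.2 points with a standard error of 9.80.

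The region at chr5:77208003-77208721 followed, at 50.1 and 37.7 with Dex before LPS and at 9.70 and 1.30 with late Dex. At chr10:116712697-116713642 the ranks were 37.6 and 50.1 against 7.91 and 6.68. The late-treated libraries placed all 3 of these regions among the weakest. At chr8:110910865-110911729 the pre-treated ranks, 47.8 and 27.8, were the furthest apart in this set, while the late-treated ranks of 0.634 and 4.28 put the region near the bottom of the ranking. At chr19:47058988-47060179 both groups had close replicates, 42.4 and 40.8 against 7.91 and 8.12, the difference being 33.6 points with a standard error of 7.86. The other regions of this set lay at chr12:101743420-101744332, chr7:4225173-4225980, chr9:108900799-108901677, chr5:125621210-125622284 and chr12:4208460-4209287, with differences of 36.0, 35.6, 34.6, 34.2 and 34.0 points.

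The 10 regions highest with late Dex relative to Dex before LPS were spread over 9 chromosomes, with widths of 721 to 1685 bp, and differed by 36.4 to 49.4 points, or 1.86-fold to 2.50-fold. Their unadjusted limma p ran from 0.000678 to 0.00713, again with an adjusted p of 1 for each. The widest difference was at chr8:96600316-96601334, with ranks of 10.5 and 22.8 in the pre-treated libraries and 59.5 and 72.8 in the late-treated ones. Maximum densities there were 8.24 and 12.5 against 21.2 and 28.8. Replicate 2 was the higher library in both groups, by 12.3 and 13.3 points, and 36.6 points separated the groups. At chr18:39537811-39538624 the ranks were 14.4 and 27.8 against 61.1 and 72.8. At chr2:122491080-122492765 they were 16.4 and 10.0 against 46.9 and 64.5.

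The lowest p of all 25877 regions belonged to chr16:52425193-52426679. Its ranks were 2.68 and 4.07 with Dex before LPS and 46.9 and 41.0 with late Dex, so a region at the bottom of the pre-treated ranking stood near the middle of the late-treated one. The difference was 40.6 points with a standard error of 7.75. The region at chr3:98178008-98179302, at 3.81 and 8.55 against 36.7 and 50.8, was listed by neither LPS library. The remaining regions lay at chr7:82811679-82812808, chr2:119821203-119822246, chr11:11453303-11454811, chr12:53947956-53948677 and chr6:15791315-15792255.

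Among strong regions, with a mean shared rank of at least 75, the widest separated differences were 11.3 to 15.2 points with pre-treated and 12.2 to 16.00 points with late-treated libraries higher. At chr2:72891810-72892844 the ranks were 81.3 and 89.1 with Dex before LPS and 71.9 and 68.0 with late Dex, and the densities 41.2 and 46.7 against 29.2 and 26.1. At chr8:107165186-107166554 replicates were close in both groups, 85.6 and 87.2 against 74.3 and 75.7. In the other direction, chr11:100435574-100437047 had ranks of 70.1 and 66.9 against 84.1 and 85.0. At chr2:49598698-49600620, 1922 bp wide, they were 74.6 and 73.3 against 86.8 and 87.2. These regions were open in every library and differed by 1.39-fold to 1.59-fold. Their unadjusted p lay between 0.0128 and 0.0594 and none passed adjustment in limma. The other strong regions named by the same rule were chr10:31032459-31033876, chr3:90057554-90059183 and chr10:95139999-95140968, higher with Dex before LPS, and chr4:128726243-128727039, chr12:114035833-114036601 and chr6:135202233-135203205, higher with late Dex.

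The LPS libraries gave the level of these regions without Dex, on ranks among the 25433 regions listed by all 6 libraries. This ranking moved the rank of a Dex library by at most 0.756 points. For single regions, here and in the runs below, Dex ranks printed beside LPS ranks are those among the 25877 regions, except where stated. Of the 10 regions widest with Dex before LPS, the mean LPS rank lay between the Dex groups in 10. At chr1:94572344-94573296 the LPS ranks were 34.2 and 54.2, nearer to the pre-treated than to the late-treated libraries. At chr19:47058988-47060179 they were 10.8 and 21.1, nearer to the late-treated ones. Of the 10 regions widest with late Dex, 9 were listed by both LPS libraries. The mean LPS rank lay above both Dex groups in 5 of these, between them in 4 and below both in 0. At chr2:122491080-122492765 the LPS ranks were 87.6 and 85.1, far above the late-treated ranks, which were in turn above the pre-treated ones. The region at chr7:82811679-82812808 had the same order, with LPS ranks of 74.7 and 85.9, late-treated ranks of 57.7 and 73.5 and pre-treated ranks of 30.8 and 22.8. At chr16:52425193-52426679, by contrast, LPS ranks of 12.1 and 22.7 lay between the groups. At chr8:96600316-96601334 the LPS ranks were 19.4 and 41.2, and only their mean lay between the groups. The lower one was below pre-treated replicate 2, at 22.1 among the 25433 regions.

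**Figure D4:**
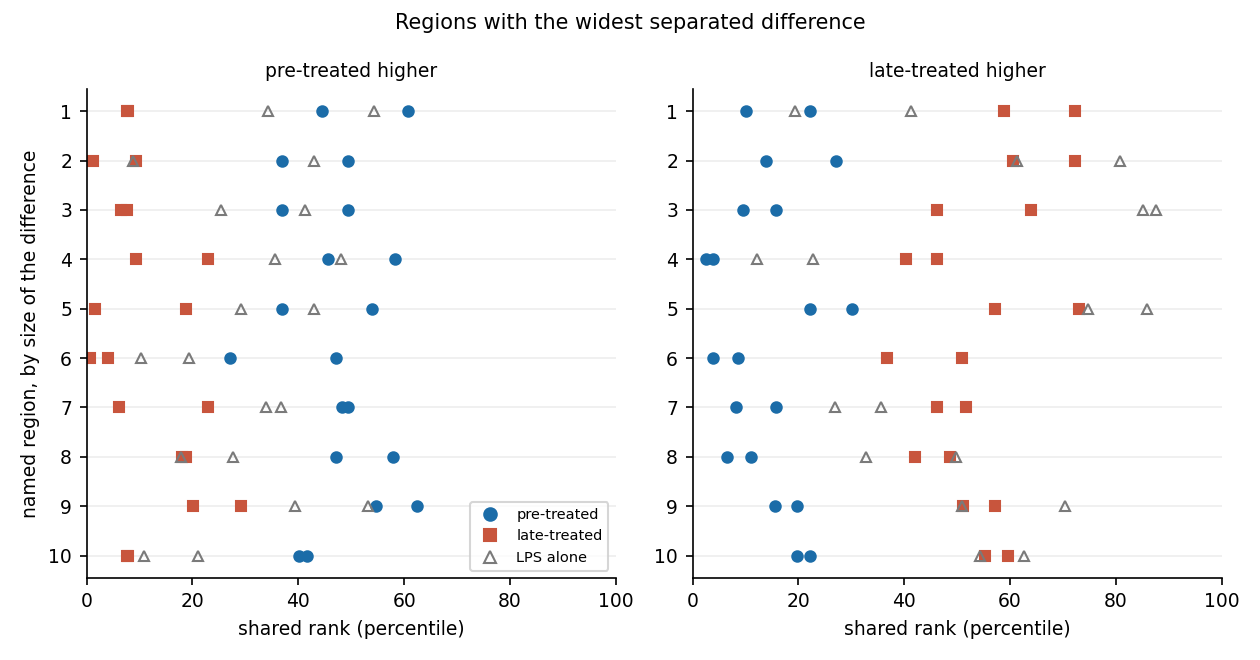
Shared rank (x axis, percentile) of the 10 separated regions with the widest difference in each direction, numbered from the widest (y axis), with 1 symbol for each pre-treated, late-treated and LPS library; ranks are among regions listed by all 6 libraries, except for late-treated region 6, which neither LPS library listed and which is ranked among the 25877. LPS symbols lie between the Dex groups on the left in the mean of each region, and on the right 5 of 9 regions have their mean LPS rank above both Dex groups.

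Over all separated regions the LPS level was intermediate in the median. For the 888 that were higher with Dex before LPS and listed by both LPS libraries, the median ranks were 47.0 (pre-treated), 30.7 (late-treated) and 40.3 (LPS alone). For the 937 higher with late Dex they were 27.6, 45.4 and 38.9 in the same order. Mean LPS ranks lay between the Dex groups in 444 of the 888 and 443 of the 937. They lay above both Dex groups in 214 (24.1%) and 286 (30.5%), and below both in 230 (25.9%) and 208 (22.2%). Separated regions were chosen for a wide interval between the Dex groups, which by itself raises the share of values that fall inside it. In the 23608 regions that were not separated, LPS lay between the Dex groups in 5830 (24.7%), above both in 36.9% and below both in 38.4%. LPS was nearer to the late-treated than to the pre-treated mean in 445 of the 888, 507 of the 937 and 12140 of the 23608.

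**Figure D5:**
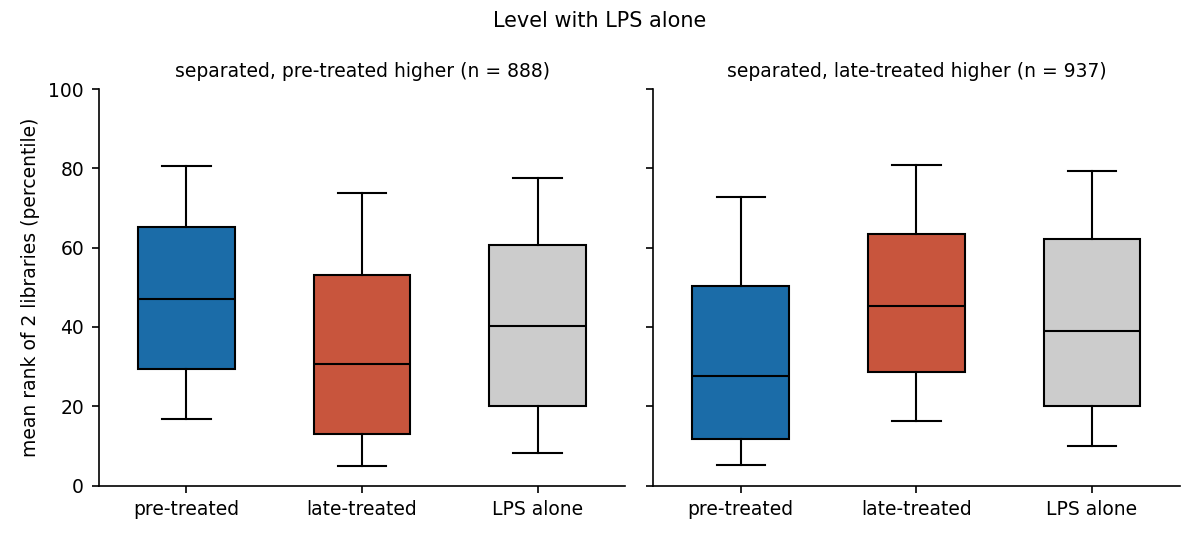
Mean rank of 2 libraries (y axis, percentile among the 25433 regions listed by all 6) for the separated regions higher with Dex before LPS (left, n = 888) and higher with late Dex (right, n = 937), in the pre-treated, late-treated and LPS groups. Boxes span the quartiles with the median as a line, and whiskers the 10th to 90th percentiles; the LPS median, 40.3 and 38.9, lies between the Dex medians in both panels.

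The timing difference was also looked at where Dex, given at either time, went with a rank away from LPS. Both LPS libraries stood above all 4 Dex libraries in 2392 of the 25433 regions (9.41%). Late-treated libraries were separated above pre-treated ones in 143 of these (5.98%), so that the pre-treated rank was the farther from LPS, and pre-treated libraries were separated above late-treated ones in 99 (4.14%). Both LPS libraries stood below all 4 Dex libraries in 2391 regions (9.40%). Here the pre-treated libraries were the higher in 106 (4.43%) and the late-treated ones in 88 (3.68%). Over all 25433 regions the shares were 3.49% (pre-treated higher) and 3.68% (late-treated higher), and no test of the difference was made. Each complete order of the groups without any overlap held in a small share of the 25433 regions. LPS, late-treated, pre-treated from high to low was found in 468 (1.84%), against 320 (1.26%) for LPS, pre-treated, late-treated. With LPS lowest, late-treated came first in 391 regions (1.54%) and pre-treated in 348 (1.37%), the other way round from the 88 and 106 separated ones. LPS in the middle was found in 178 regions (0.70%) with pre-treated and 190 (0.75%) with late-treated highest. These shares were not tested against each other.

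The 230 shared regions that neither LPS library listed were weaker than the rest, with a median mean rank of 22.8 against 48.9 for all shared regions. Of these, 12 (5.22%) were separated with pre-treated libraries higher and 22 (9.57%) with late-treated libraries higher. Their median mean rank lies in the part of the ranking where 4.45% and 5.06% of all shared regions were separated. The region at chr3:98178008-98179302, described above, led those higher with late Dex. It was followed by chr6:97874082-97874840, at 26.8 and 14.5 against 50.6 and 56.5, and chr4:134244004-134244892, at 14.4 and 21.2 against 41.4 and 55.2. The 2 that led in the other direction were chr15:54963630-54964384, at 42.4 and 45.0 against 14.0 and 25.6, and chr3:50537167-50538005, at 22.5 and 24.5 against 2.53 and 1.84. These regions, other than the first, were picked after their values were seen.

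Neighbouring shared regions were compared in direction. Of 3011 pairs at most 2 kb apart, both were separated in the same direction in 13 and in opposite directions in 10. Of 8411 pairs of neighbouring shared regions at most 10 kb apart, both were separated in 56, in the same direction in 36 and in opposite directions in 20. The 18102 pairs at most 50 kb apart gave 81 and 39. Over all shared regions 3.5% were separated with pre-treated and 3.77% with late-treated libraries higher. The timing differences of the 2 neighbours correlated at r = 0.16 within 2 kb, 0.14 within 10 kb and 0.10 within 50 kb, as a description. Whether neighbours share a direction more often than the overall shares give was not tested. Runs of at least 3 separated regions of the same direction, with gaps of at most 100 kb, numbered 11 with pre-treated and 20 with late-treated libraries higher. They were looked for after the values were seen and held 35 and 61 separated regions. Most of their spans also held shared regions that were not separated, as at chr15:100452329-100588495, where 4 of 10 were. The late-treated run at chr2:144040748-144116728 held 1 region separated in the opposite direction.

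The run with the widest mean difference lay on chromosome 18. Its 3 regions, the only shared ones in a span of 59.8 kb, were all higher with late Dex. At chr18:39478792-39479796 the ranks were 43.8 and 37.7 with Dex before LPS and 64.8 and 72.0 with late Dex. At chr18:39528595-39529786 they were 37.6 and 47.6 against 63.4 and 76.3, and the third is the region at chr18:39537811-39538624 given above. LPS ranks at the 3 regions, 66.7 and 75.9, 62.0 and 67.7, and 61.4 and 80.8, overlapped with the late-treated ones, and the pre-treated libraries stood below the other 4 at each region. On chromosome 3, between 142159199 and 142282377, 3 of 6 shared regions were separated with late-treated libraries higher. They included chr3:142281419-142282377, with LPS ranks of 76.4 and 85.4, late-treated ranks of 31.1 and 37.4 and pre-treated ranks of 20.4 and 17.9.

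Of the runs higher with Dex before LPS, the one with the widest mean difference held 3 regions in 10.1 kb of chromosome 10, with no other shared region among them. The first is chr10:116712697-116713642. At chr10:116718388-116719722 the ranks were 70.6 and 77.8 with Dex before LPS and 51.8 and 53.8 with late Dex, and the LPS ranks were 67.2 and 77.8. At chr10:116721781-116722778 they were 56.4 and 55.6 against 34.9 and 33.6, with LPS ranks of 39.4 and 51.0. Here the late-treated libraries were the lowest of the 3 groups at every region. On chromosome 2, in a span of 143 kb from 154089847, 3 of 4 shared regions were separated in this direction. At chr2:154089847-154090880 the pre-treated ranks were 28.8 and 43.7, the late-treated ranks 4.80 and 6.68, and the LPS ranks 0.948 and 0.279, so the order from low to high was LPS alone, late Dex, Dex before LPS. None of the regions in these runs passed adjustment in limma.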

How the data were processed

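DNase I was used at 80 U/ml on nuclei (3 min, 37 °C), and libraries of 100 to 500 bp fragments gave single-end reads of 51 bp, per the labels' protocols. Reads went through CASAVA and positions are in mm9, per the submitters' processing notes. The aligner and the hotspot caller were not given in the sources used here. One list was deposited per library. The deposited signal values are the maximum and average tag density of a hotspot, per the file headers, with no stated scaling. The deposited score is a z-score, and a deposited p-value per hotspot was not used, per the file headers. Positions stand as deposited, since the files do not say if they count from 0 or 1.

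Lists were merged and ranked with Python 3.11.15 (pandas 2.3.3), ties sharing their mean rank. Shared ranks were compared with limma 3.58.1 (R 4.3.3; eBayes with a variance trend) without covariates, and p-values were adjusted over all 25877 regions by the Benjamini-Hochberg method. Alternatives changed the ranked value, the merging of hotspots, the part of the lists used, the scale, the libraries in the fit, the variance trend and the replicate block. The scripts were tested on simulated data. Named regions are the 10 separated regions with the largest mean difference in each direction and the 5 largest with a mean rank of at least 75. The comparison, lists and rules were chosen with earlier results of these data known. Replicate numbers were not taken to pair libraries, since no label says that they do. No genome or annotation in mm9 was used here, so no genes or sequences are given.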

Additional observations from a re-analysis of the deposited data

How the results depend on the processing

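limma called 0 regions in either direction under each of the 17 alternatives run, including each library left out in turn. At an unadjusted p below 0.05 the share ran from 0.224% (percentiles of the whole lists, 58 regions) to 8.60% (the replicate number as a block). With the replicate block, 2225 regions had an unadjusted p below 0.05 (1066 with pre-treated and 1159 with late-treated libraries higher), the calls were still 0 and 0, and the lowest adjusted p was 0.549. Under the other alternatives that kept every library the lowest adjusted p was at least 0.9998. Where a library was left out, a group's lone library was assumed to vary like the others. Without late-treated replicate 1, 1104 regions had an unadjusted p below 0.05, against 686. Same-numbered libraries deviated together from their group means (r = 0.43 over regions). The 2 same-number timing differences correlated at r = 0.19; both reached 10 points with the pre-treated library higher in 948 regions and with the late-treated library higher in 1077, and they reached it with opposite signs in 988.

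Separated regions higher with late Dex numbered 169 with percentiles of the whole lists, against 975, and those higher with Dex before LPS 910, against 906. List length enters those percentiles, and its part in these counts was not tested. The stronger 50% of each list left 13468 regions listed by all 4, of which 367 and 393 were separated. Leaving out a library drops a condition of separation, and the counts then ran from 3219 to 4061 (pre-treated higher) and from 3376 to 4123 (late-treated higher). The replicate pairs' median difference averaged 7.48 points, and 10.04 with percentiles of the whole lists, 6.90 with z-scores ranked, 8.38 with lists of equal length and 10.5 with the stronger 50%. The timing pairs averaged 6.70 points, and 8.51 with the stronger 50%. In each of the 8 alternatives of these averages the average of the timing pairs, which holds the same-number pairs, was below that of the replicate pairs. The 30 differences of the named sets kept their sign in all 472 of 510 recomputations that held the region. This outcome was partly fixed in advance, because the regions were chosen as separated. Leaving out 1 library cannot turn the sign of a separated region. The replicate block and the fit without a variance trend leave the difference itself unchanged. With 1 library left out, 26015 to 30585 regions were listed by the other 3, the most without late-treated replicate 1.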
